A study of Saccharomyces cerevisiae with 9 samples.

Results

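The late ergosterol enzymes of Saccharomyces cerevisiae turn lanosterol, the first sterol of the pathway, into ergosterol. The set holds 10 genes (ERG11, ERG24, ERG25, ERG26, ERG27, ERG6, ERG2, ERG3, ERG5 and ERG4), chosen as the probe sets that the platform annotation assigns to exactly 1 of these genes. Each gene had 1 such probe set, none with a suffix for probes shared between genes, and together they are 10 of the 5656 genes named on the array. The series has 9 Affymetrix Yeast S98 arrays, 3 for each of 3 groups. The commercial dry active yeast is a product whose strain, culture and drying are not given in the sources used here, since its descriptions carry the BY4743 protocol text. Dried BY4743 had dried in open dishes at 22 to 25 °C for 42 h and was then kept for 72 h at 20% relative humidity. Control BY4743 was taken before drying, from cells grown at 30 °C in rich glucose medium (YPD) to an A600 of 0.8, spun down and resuspended in diluted YPD. All dried BY4743 cells had gone through those same steps first. BY4743, a diploid of the S288C laboratory family, lacks working copies of URA3, LEU2 and HIS3, and strains of this ancestry carry a transposon in HAP1, which encodes a heme-responsive activator.

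Ergosterol is the main sterol of yeast membranes, where it sets fluidity and permeability as cholesterol does in animal cells. Its synthesis uses molecular oxygen at several steps, so yeast without air cannot make it and takes sterol up instead. Among the late enzymes, Erg11 and Erg5 are cytochrome P450 enzymes with heme, Erg25 and Erg3 are oxygenases with bound iron, and the others are reductases, a dehydrogenase, an isomerase and a methyltransferase that need no oxygen. The pathway genes answer to the sterol-sensing activators Upc2 and Ecm22, and the azole antifungals act on Erg11.

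Signals are given in arbitrary units after quantile normalization, which gives every array the same distribution, so all changes are relative to the middle of the transcripts on an array. A gene was called changed at a Benjamini-Hochberg adjusted p under 0.05 in limma over 9275 probe sets. URA3, deleted in BY4743, had 358, 404 and 332 in commercial yeast, stood at the floor of 1 on all dried arrays and read 2.43 to 3.22 on control arrays. LEU2 had 350.2, 352 and 445 in commercial yeast and 13.2, 35.7 and 40.1 in dried BY4743, but 84.8, 73.0 and 95.8 in control BY4743, above the background of 32.2 to 59.5 although the genotype lacks it; the source of that signal was not tested. Within a group the arrays correlated at r of 0.971 to 0.981 across probe sets, and 72.1% to 81.3% of probe sets lay above background. The log2 ratio of the 3′ to the 5′ probe set of ACT1, a sign of RNA integrity, was 0.42 ± 0.098 in commercial yeast, 1.40 ± 0.173 in dried BY4743 and -0.40 ± 0.274 in control BY4743 (SD, n = 3 each), so it moves with every comparison here and its part in the results was not tested. The spike-in controls averaged a log2 signal of 10.0 ± 0.0059 in commercial yeast, 8.76 ± 0.484 in dried BY4743 and 8.35 ± 0.291 in control BY4743 as deposited (SD, n = 3 each). Scaling to them shifts the median of all probe sets by -0.29 for dried over control, -1.10 for commercial over dried and -1.43 for commercial over control. Results that this scaling turns are named beside them. The spike-in controls are the 9 probe sets of BioB, BioC, BioDn and CreX. Whether they follow the amount of RNA per cell was not tested, so spike-in scaling is not read as an absolute scale. The labels do not state that replicate arrays are of separate cultures, and p-values reflect only the spread among arrays, which may be technical. Fewer cells holding a transcript and less of it per cell cannot be told apart.

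ERG11 encodes lanosterol demethylase, the P450 enzyme that opens the late pathway. It had 4092, 4455 and 4336 in commercial yeast, 742, 732 and 767 in dried BY4743, and 5088, 4358 and 4528 in control BY4743. The dried arrays lay far below the others, and the commercial and control arrays overlapped. Its log2 change was -2.64 ± 0.083 (SE) for dried over control (adjusted p = 8.22e-08) and 2.52 ± 0.083 for commercial over dried (adjusted p = 3.21e-07). Between commercial yeast and the control the change of -0.11 was not called (adjusted p = 0.247), with a 95% interval of -0.31 to 0.08; under spike-in scaling ERG11 was called lower there, by -1.48 (adjusted p = 0.000998), close to the shift of all probe sets.

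Erg24 is the reductase that acts on the product of Erg11. ERG24 had 465, 488 and 502 in commercial yeast, 343, 323 and 349 in dried BY4743, and 732, 718 and 729 in control BY4743. The 3 groups stood apart with the commercial arrays in the middle, and its fall on drying was the smallest of the set. The log2 changes were -1.10 ± 0.070 for dried over control (adjusted p = 2.76e-06), 0.52 ± 0.070 for commercial over dried (adjusted p = 0.000303) and -0.58 ± 0.070 for commercial over control (adjusted p = 0.00012). Under spike-in scaling the commercial over dried change turned to -0.85 (adjusted p = 0.0421).

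Erg25, Erg26 and Erg27 work in turn to take methyl groups off the sterol: Erg25 oxidises the methyl group with oxygen, Erg26 removes it as carbon dioxide, and Erg27 reduces the ketone that is left. ERG25 had 5780.5, 5756 and 5886 in commercial yeast, 245, 244 and 229.6 in dried BY4743, and 4772, 4702 and 4586 in control BY4743. Dried cells held the lowest signals by a wide margin, and all 3 commercial arrays lay above all 3 control arrays. ERG25 was 19.6-fold lower in dried than in control BY4743 (log2 change -4.29 ± 0.066, adjusted p = 8.50e-09) and 24.2-fold higher in commercial than in dried yeast (log2 change 4.60 ± 0.066, adjusted p = 4.77e-09). The step of 0.31 ± 0.066 over the control was small by comparison (adjusted p = 0.0033) and turned to -1.02 under spike-in scaling (adjusted p = 0.0121).

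ERG26 read 217, 264 and 221 in commercial yeast, 23.4, 38.1 and 32.3 in dried BY4743, and 1092, 1162 and 1142 in control BY4743. All 3 dried arrays lay at or under background, so its changes against that group are bounds. ERG26 was at least 22.3-fold lower in dried than in control BY4743 (adjusted p = 1.08e-07) and at least 4.59-fold higher in commercial than in dried yeast (adjusted p = 4.02e-06). Against the control it was lower in commercial yeast, with a log2 change of -2.28 ± 0.175 (adjusted p = 9.10e-06). ERG27 gave 557, 651 and 653 in commercial yeast, 662, 637 and 543 in dried BY4743, and 2054, 1871 and 2170.4 in control BY4743. Both dry yeasts overlapped here, well below the control. ERG27 fell by 1.73 ± 0.113 on the log2 scale in dried BY4743 against the control (adjusted p = 3.40e-06) and by 1.71 ± 0.113 in commercial yeast against the control (adjusted p = 3.91e-06). For commercial over dried its change of 0.02 was not called (adjusted p = 0.912, 95% interval -0.25 to 0.28), and under spike-in scaling it was -1.37 (adjusted p = 0.0021).

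Erg6 is the methyltransferase that adds the side-chain methyl group found in fungal sterols but not in cholesterol. ERG6 had 1769, 1879.9 and 1911 in commercial yeast, 158, 162 and 155 in dried BY4743, and 2929.5, 4709.7 and 4621 in control BY4743. The control arrays spread widely because replicate 1 was low, yet it still exceeded every commercial array. Its log2 change was -4.66 ± 0.175 for dried over control (adjusted p = 1.82e-07), 3.55 ± 0.175 for commercial over dried (adjusted p = 1.67e-06) and -1.11 ± 0.175 for commercial over control (adjusted p = 0.000616). Leaving out control replicate 1 gave -1.37 for the last of these.

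Erg2 is the isomerase that moves a double bond within the ring, and Erg3 is the iron oxygenase that adds the next one. ERG2 had 852, 989 and 986 in commercial yeast, 376, 401 and 364 in dried BY4743, and 4996, 5262 and 5382 in control BY4743. Commercial arrays sat between the other groups but closer to the dried ones. The ERG2 log2 changes were -3.78 ± 0.088 for dried over control (adjusted p = 2.97e-08), 1.31 ± 0.088 for commercial over dried (adjusted p = 7.37e-06, and -0.12 with adjusted p = 0.779 under spike-in scaling) and -2.47 ± 0.088 for commercial over control (adjusted p = 1.62e-07). ERG3 had 1504, 1488 and 1516 in commercial yeast, 224, 288 and 237 in dried BY4743, and 3135, 3332 and 3249.9 in control BY4743. Again the groups did not overlap, and ERG3 in commercial yeast came nearer to the control on the log2 scale. For ERG3 the log2 changes were -3.71 ± 0.102 for dried over control (adjusted p = 4.90e-08), 2.60 ± 0.102 for commercial over dried (adjusted p = 6.29e-07) and -1.11 ± 0.102 for commercial over control (adjusted p = 2.59e-05).

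Erg5 is the P450 enzyme that desaturates the side chain, and Erg4 is the reductase that completes ergosterol. ERG5 had 1172, 943 and 745 in commercial yeast, 47.2, 42.4 and 35.7 in dried BY4743, and 522, 507 and 538 in control BY4743. Commercial yeast held the highest signals and the widest spread, while only 1 of the 3 dried arrays was above background, by a small margin, so the sizes of its changes against dried cells are uncertain. ERG5 changed by -3.65 ± 0.173 on the log2 scale for dried over control (adjusted p = 5.39e-07), by 4.50 ± 0.173 for commercial over dried (adjusted p = 5.67e-07) and by 0.84 ± 0.173 for commercial over control (adjusted p = 0.00257), the last turning to -0.86 under spike-in scaling (adjusted p = 0.0316). With signals under background raised to it, the first 2 of these ERG5 changes were -3.36 and 4.20. ERG4 had 249, 210.3 and 218 in commercial yeast, 90.4, 88.8 and 93.4 in dried BY4743, and 3708, 3501 and 3532 in control BY4743. Both dry yeasts were far below the control at this last step. ERG4 was 39.4-fold lower in dried than in control BY4743 (log2 change -5.30 ± 0.085, adjusted p = 9.14e-09) and 15.9-fold lower in commercial yeast than in the control (log2 change -3.99 ± 0.085, adjusted p = 2.11e-08). The commercial over dried change of ERG4 was 1.31 ± 0.085 (adjusted p = 6.05e-06) but 0.10 under spike-in scaling (adjusted p = 0.816).

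**Figure D1:**
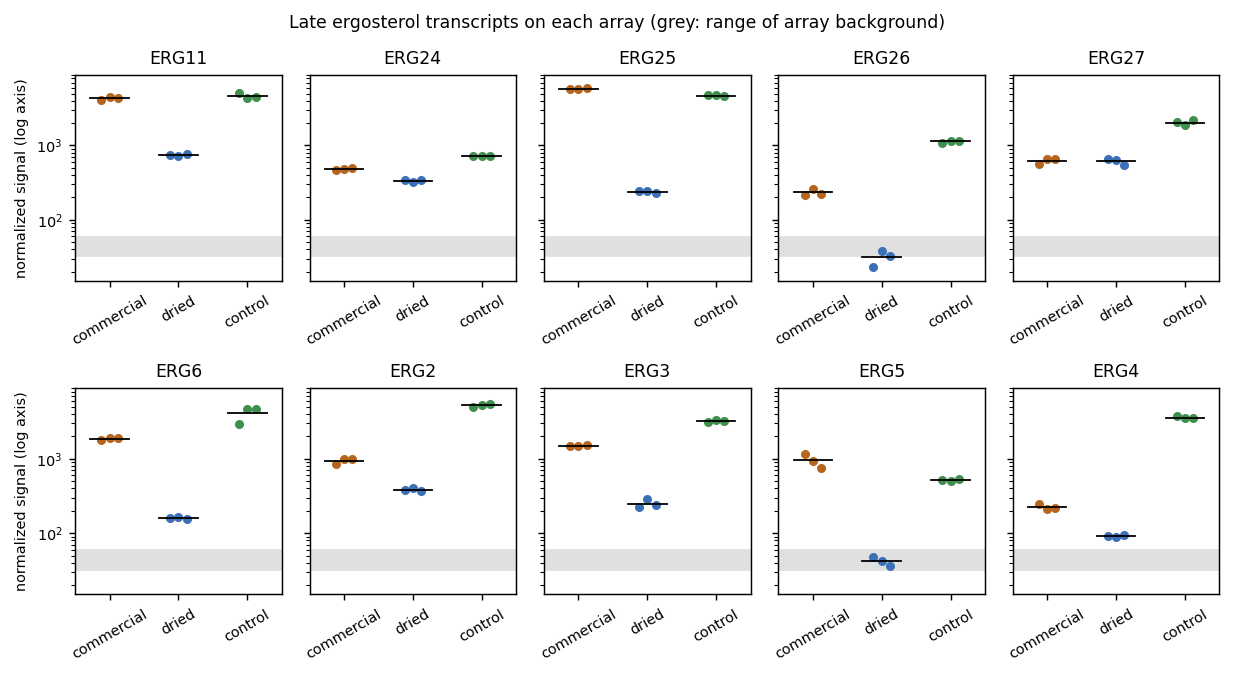
Normalized signal (arbitrary units, log axis) of the 10 late ergosterol genes on each array, in pathway order. Points are arrays of commercial yeast, dried BY4743 and control BY4743, bars are group means, and the grey band is the range of array background (32.2 to 59.5). Dried cells hold the lowest mean in every panel on this scale, though dried and commercial arrays overlap in ERG27. Under spike-in scaling ERG24, ERG27 and ERG2 have their lowest mean in commercial yeast, but for ERG2 the difference from dried BY4743 was not called.

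Drying of BY4743 was accompanied by lower signals of the whole late pathway. All 10 genes were called lower in dried than in control BY4743, in every scaling tried, and none was higher. By comparison, 33% of all probe sets were called lower in that comparison and 36.2% higher, and 74.6% had groups that did not overlap, as all 10 genes had. The median log2 change of the set was -3.74, against 0.04 over all probe sets, and every member was at least 2-fold lower, as 21.9% of all probe sets were. ERG4 ranked 28th, ERG6 57th and ERG25 96th from the lowest of 9275 fitted changes, while ERG26 has only a bound and no rank. The smallest changes were those of ERG24 and ERG27. Drying and the time that passed in it cannot be told apart, since no undried suspension of the same age was analysed here.

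Relative to the other transcripts on the array, commercial dry yeast held more late ergosterol RNA than dried BY4743. In that comparison 9 of 10 genes were called higher, none was lower and ERG27 was not called, while 33.1% of all probe sets were called higher and 33.5% lower. Under spike-in scaling 6 of the genes were higher and 2 (ERG24 and ERG27) were lower, beside 819 of all 9275 probe sets called higher and 5387 called lower. Under the main scaling 9 of the genes had groups that did not overlap, against 72.8% of all probe sets. The median log2 change of the set was 2.56, against 0.00 over all probe sets, or 2.36 with signals under background raised to it. At least 2-fold higher were 8 of the genes, against 19.3% of all probe sets. ERG25 ranked 47th and ERG6 144th from the highest of 9275 fitted changes. Any differences in strain, culture or drying between these yeasts cannot be told apart.

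Set against control BY4743, commercial yeast had a mixed pattern. ERG25 and ERG5 were called higher, 7 genes were called lower and ERG11 was not called. Of all probe sets, 35.5% were called higher and 37% lower. Under spike-in scaling all 10 genes were lower, beside 6070 of all 9275 probe sets called lower and 814 called higher. The median of all probe sets was itself shifted by -1.43 there. Under the main scaling the groups did not overlap in 9 of the genes, against 75.5% of all probe sets. The median log2 change was -1.11, against -0.01 over all probe sets, and 6 genes were at least 2-fold lower, against 24.1%. Changes ran from -3.99 for ERG4, 145th from the lowest, to 0.84 for ERG5. The comparisons share arrays: those with commercial yeast use the same 3 commercial arrays, and each BY4743 group serves 2 comparisons, so a large fall on drying and a large excess of commercial over dried yeast are not independent measurements.

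**Figure D2:**
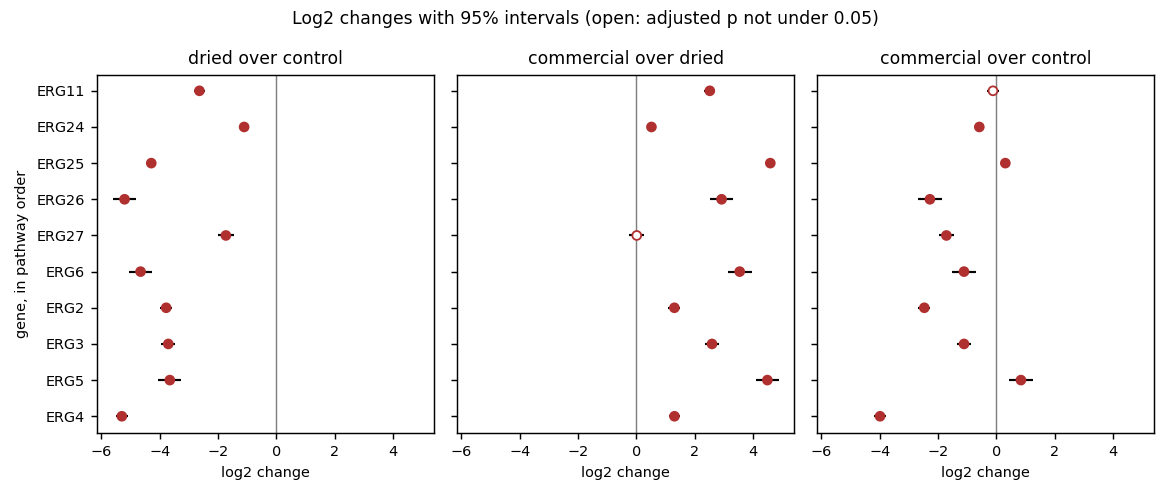
Log2 change of each late ergosterol gene in the 3 comparisons, in pathway order from top to bottom, with 95% intervals from the limma fit. Filled points have an adjusted p under 0.05; the open points are ERG27 in commercial over dried and ERG11 in commercial over control. All 10 points lie left of 0 in dried over control, while in commercial over control the points run from -3.99 to 0.84; under spike-in scaling the 2 points to the right of 0 there move to its left.

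Within the set, the genes of the 4 oxygen-using enzymes (ERG11, ERG25, ERG3 and ERG5) and the other 6 differed in how commercial yeast compared with BY4743. Their median log2 change was -3.68 for dried over control, 3.55 for commercial over dried and 0.10 for commercial over control. For the other 6 genes the medians were -4.22, 1.31 and -2.0 in the same order of comparisons. Against the control, commercial yeast had 2 of the 4 oxygen-using genes higher, 1 lower (ERG3) and 1 not called, and 6 of 6 others lower. Over all probe sets, 35.5% were called higher and 37% lower in that comparison. Under spike-in scaling all genes of both kinds were lower, beside 6070 of all 9275 probe sets called lower and 814 called higher.

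A difference taken within an array does not depend on a constant scale for that array. The mean log2 signal of the 4 oxygen-using genes minus that of the other 6 was 2.27, 2.11 and 2.06 on the commercial arrays, 0.26, 0.19 and 0.14 on the dried arrays, and 0.25, 0.10 and 0.08 on the control arrays. Commercial arrays stood clear of both BY4743 groups, and the dried and control arrays overlapped. The group means were 2.15 ± 0.111 in commercial yeast, 0.20 ± 0.060 in dried BY4743 and 0.14 ± 0.093 in control BY4743 (SD, n = 3 each). Levels of different probe sets are not comparable, so only the change of this difference between groups can be read: 1.95 for commercial over dried, 2.01 for commercial over control and 0.06 for dried over control. No p is given, since the genes were grouped with results of these arrays known. The kinds were not uniform, as ERG3 in commercial yeast was below the control while ERG11 was level with it, and ERG6, which uses no oxygen, had a larger excess over dried BY4743 than ERG11 or ERG3.

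**Figure D3:**
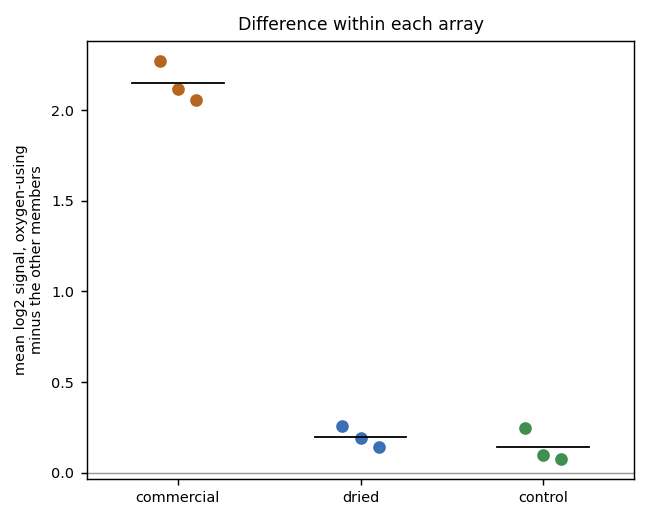
Mean log2 signal of the 4 oxygen-using late ergosterol genes minus that of the other 6, per array; bars are group means. The 3 commercial arrays sit between 2.06 and 2.27, above all 6 arrays of dried and control BY4743, which sit between 0.08 and 0.26.

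How alike the 10 genes ran over the 9 arrays was measured as the root mean square difference between log2 profiles, each centred on its own mean. The closest members to each other were ERG25 and ERG5 (0.33), both highest in commercial yeast, then ERG24 and ERG27 (0.47), both with small falls, then ERG6 and ERG3 (0.48). Against the mean profile of the set, ERG3 was nearest (0.11) and ERG4 farthest (1.14), with ERG24 (1.06), ERG27 (1.03) and ERG5 (1.00) also far. Among 5145 other genes with a probe set above background on at least 6 arrays, the closest to the mean profile were SIL1 (0.10), LIA1 (0.13), RPL13B (0.14), RPS7B (0.14) and PRT1 (0.14). SIL1 averaged 32.8 in dried BY4743, at background, so its closeness rests in part on signals that were not measured above it. SIL1 encodes an exchange factor of an endoplasmic reticulum chaperone, LIA1 an enzyme that modifies a translation factor, RPL13B and RPS7B ribosomal proteins, and PRT1 a subunit of a translation initiation factor. RPL13B and RPS7B have near-identical copies whose transcripts may hybridise to the same probes, so their values are uncertain. Many other genes lay closer to the mean profile than most members did, from 144 genes for ERG11 to 1045 for ERG4, so many genes outside the pathway ran in a like way.

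The counts of the related lists stand beside these shares of all probe sets. Called higher and lower were 36.2% and 33% for dried over control, 33.1% and 33.5% for commercial over dried, and 35.5% and 37% for commercial over control. Under spike-in scaling 1767, 819 and 814 of 9275 were higher and 2989, 5387 and 6070 lower. List counts near these shares set a list apart from no other genes. The 12 genes of the early pathway, from acetyl-CoA to lanosterol, moved less than the late genes. In dried against control BY4743, 2 were called higher, 8 lower and 2 not, with a median log2 change of -1.28. Under spike-in scaling 8 were lower there and none was higher (median -1.70). For commercial over dried, 8 were higher, 2 lower and 2 not, with a median of 1.06, which spike-in scaling turned to -0.29 with 1 higher and 5 lower. For commercial over control, 4 were higher, 6 lower and 2 not, with a median of -0.26; under spike-in scaling all 12 were lower. MVD1, the mevalonate diphosphate decarboxylase, had 331, 382 and 360.1 in commercial yeast, 71.0, 70.8 and 69.9 in dried BY4743, and 1326, 1539 and 1391 in control BY4743, a pattern of the size seen in the late genes. Its log2 changes were -4.33 for dried over control, 2.34 for commercial over dried and -1.99 for commercial over control, all 3 called. ERG12, mevalonate kinase, had called changes of -2.90, 1.41 and -1.48 in the same order (0.18 for the second, not called, under spike-in scaling). The ERG12 probe set carries a suffix for probes shared between genes, so its values are uncertain. With only probe sets that lack this suffix, the list's median for commercial over dried was 0.74, still with 8 higher and 2 lower. ERG1, the oxygen-using squalene epoxidase, was called at -1.97, 1.69 and -0.28 (0.26 for the second, not called, under spike-in scaling). HMG1 and HMG2 encode the 2 forms of HMG-CoA reductase, the main control point of the early pathway, and they went different ways on drying. HMG1 had 2330.4, 2487 and 2610.1 in commercial yeast, 880.5, 1025 and 831 in dried BY4743, and 1549, 1581 and 1549 in control BY4743, while HMG2 had 2204, 2273 and 2100.2 in commercial yeast, 2285, 2614 and 2719 in dried BY4743, and 1287, 1179.7 and 1261 in control BY4743. For dried over control HMG1 was thus called lower at -0.78 and HMG2 higher at 1.03 (0.49 with adjusted p = 0.254 under spike-in scaling), whereas both were called higher in commercial yeast than in the control, at 0.67 and 0.82; spike-in scaling makes all genes of the list lower in the last comparison.

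Of 4 partners of the late enzymes, 3 were called lower in dried than in control BY4743 and none higher, with a median log2 change of -1.41. All 4 were called higher in commercial than in dried yeast, with a median of 0.71, but none under spike-in scaling, where 1 was lower and the median was -0.52. Against the control, 3 were lower in commercial yeast with a median of -0.71. NCP1, the reductase that passes electrons to the P450 enzymes, was called at -2.27 for dried over control, 1.07 for commercial over dried and -1.20 for commercial over control. ERG28, the scaffold that holds late enzymes together, was called at -1.33, 0.97 and -0.35 in the same order. DAP1, a heme-binding activator of Erg11, was the partner not called in either comparison with the control. The genes of the P450 partner and of the scaffold were thus lower in commercial yeast than in the control, where ERG5 was higher and ERG11 was not called; under spike-in scaling all 4 of these were lower.

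The regulators did not move together. Of 9 genes, 5 were higher and 3 lower in dried than in control BY4743 (median log2 change 0.59, or 0.37 under spike-in scaling with 2 higher and 1 lower). In commercial against dried yeast 3 were higher and 4 lower (median -0.25, or -1.48 under spike-in scaling with 6 lower and none higher). In commercial yeast against the control 5 were higher and 3 lower (median 0.69, or -1.02 under spike-in scaling with 6 lower and none higher). UPC2, which encodes the sterol sensor that turns on the pathway when sterol is scarce, had 179, 167 and 143 in commercial yeast, 102, 90.3 and 119.8 in dried BY4743, and 67.4, 62.7 and 58.8 in control BY4743. Its changes of 0.72, 0.65 and 1.37 (dried over control, commercial over dried, commercial over control) were all called, at low signals, but were 0.45, -0.54 and -0.09 under spike-in scaling with none called. ECM22, its paralog, was called at -0.58, 1.26 and 0.69, but under spike-in scaling these were -0.86 (not called), -0.15 (not called) and -1.02 (adjusted p = 0.0191). ROX1, the repressor of genes used without oxygen, was called at 2.0, -0.58 and 1.42 (the last -0.13 with adjusted p = 0.758 under spike-in scaling), with 402, 366 and 333 in commercial yeast, 579, 530.2 and 534 in dried BY4743, and 141, 127 and 144 in control BY4743. NSG1, which stabilises HMG-CoA reductase, was called at -2.51, 0.67 and -1.84, the change over dried BY4743 becoming -0.72 (adjusted p = 0.0908) under spike-in scaling. The brightest HAP1 probe set shares probes with other genes and gave -2.03 for commercial over control, while the HAP1 probe set without shared probes gave 1.01, so no direction is given for HAP1. With probe sets that share no probes, the counts of regulators were 6 higher and 3 lower (median 0.72) for dried over control, 4 higher and 3 lower (median -0.05) for commercial over dried, and 6 higher and 2 lower (median 0.80) for commercial over control, so the larger count in commercial over dried depends on that HAP1 probe set.

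Sterol esterification and hydrolysis, which store and release sterol, included 7 genes. In dried BY4743, 5 were called lower and 1 higher than in the control (median -0.61). Commercial yeast had 3 higher and 1 lower against dried BY4743 (median 0.46, or -0.46 under spike-in scaling) and 2 higher and 4 lower against the control (median -0.94). The 2 higher genes were ARE1 and ARE2, both sterol acyltransferases. ARE2 had 865, 769 and 892 in commercial yeast, 248, 243 and 268 in dried BY4743, and 192, 186 and 219 in control BY4743. For commercial over control ARE2 was called at 2.08 and ARE1 at 1.17, although under spike-in scaling no gene of this list was called higher in any comparison. ATF2, a sterol acetyltransferase, was called at -2.05 for dried over control and -1.59 for commercial over control.

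The 8 genes of sterol uptake and of the cell wall of airless growth were mostly lower in dried than in control BY4743 (6 lower, 2 higher, median -0.85). Under spike-in scaling 5 were lower there and none was higher (median -1.23). Commercial yeast had 6 higher and 1 lower against dried BY4743 (median 0.70, or -0.58 with 1 higher and 4 lower under spike-in scaling), and 2 higher and 3 lower against the control (median -0.07, or -1.61 with 7 lower under spike-in scaling). TIR1, a cell wall mannoprotein, was called at -3.21 for dried over control, 1.08 for commercial over dried (-0.29 and not called under spike-in scaling) and -2.14 for commercial over control. DAN1, another wall protein made without air, was at background in dried cells and at least 2.26-fold higher in commercial than in dried yeast. AUS1, a sterol importer, had 189.8, 206 and 165 in commercial yeast, 97.2, 96.9 and 105 in dried BY4743, and 205, 194 and 206 in control BY4743, so commercial and control arrays overlapped. Of 9 sterol carriers, HES1 was at background in all groups and is left out here, a choice made after its values were seen. Among the other 8, 3 were higher and 2 lower in dried than in control BY4743 (median 0.11), 5 higher and 3 lower in commercial than in dried yeast (median 0.40), and 4 higher and 3 lower in commercial yeast than in the control (median 0.02). Spike-in scaling turned all 3 of these carrier medians, to -0.21, -0.93 and -1.59, with none called higher. OSH6 and KES1, oxysterol-binding proteins, were called at -2.02 and -2.0 for dried over control, while NCR1, which moves sterol out of the vacuole, was called at 0.89 (0.42 with adjusted p = 0.339 under spike-in scaling).

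**Figure D4:**
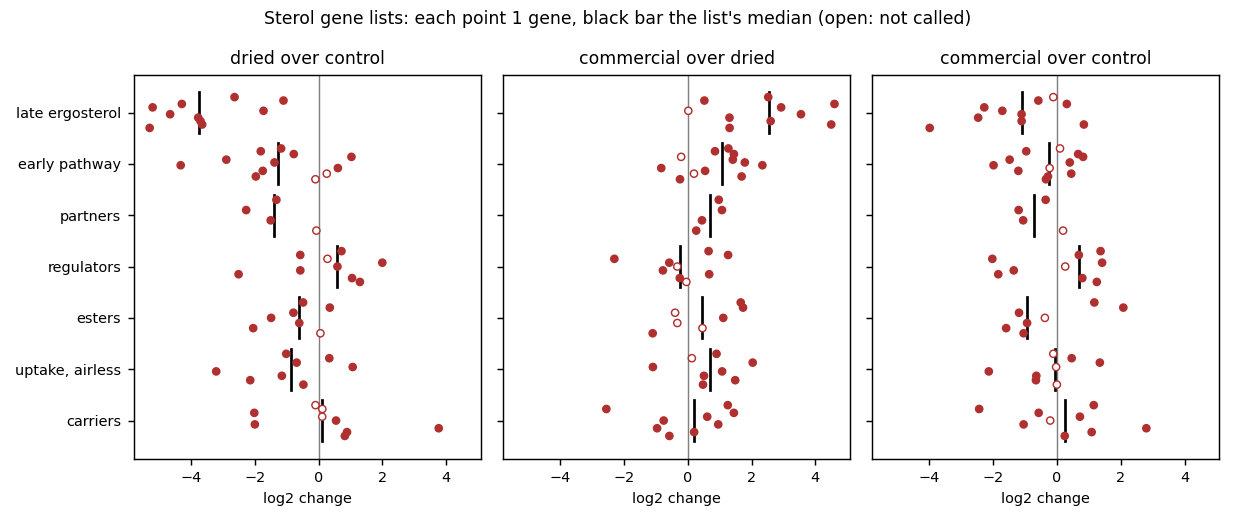
Log2 changes of the late ergosterol genes and of 6 related sterol lists in the 3 comparisons; each point is 1 gene, filled where the adjusted p is under 0.05, and black bars are list medians. The late genes have medians of -3.74, 2.56 and -1.11, against -1.28, 1.06 and -0.26 for the early pathway; the carrier at the far right of the first panel is HES1, which was at background in all groups, so its fitted change has no meaning, although the carriers' bar includes it.

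Across all 49 related genes, 14 were higher and 27 lower in dried than in control BY4743 (median log2 change -0.57), 29 higher and 12 lower in commercial than in dried yeast (median 0.51), and 18 higher and 22 lower in commercial yeast than in the control (median -0.21). These counts depended on the scaling: under spike-in scaling the counts became 3 higher and 24 lower, then 2 higher and 24 lower, then 1 higher and 40 lower. Without HES1 the main counts were 13 higher and 27 lower, 29 higher and 11 lower, and 17 higher and 22 lower. Over all called probe sets, the share called higher was 37.2%, 13.2% and 11.8% under spike-in scaling, against 52.3%, 49.7% and 49.0% under the main scaling. Relative to the median of all probe sets, the late ergosterol median was -3.82, 2.40 and -1.42 under spike-in scaling, against -3.78, 2.56 and -1.09 under the main scaling. Spike-in scaling shifts each array by a constant, which cancels in this relative median. The values as deposited therefore give the same -3.82, 2.40 and -1.42, and the likeness is no test of the spike-in scaling.

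**Figure D5:**
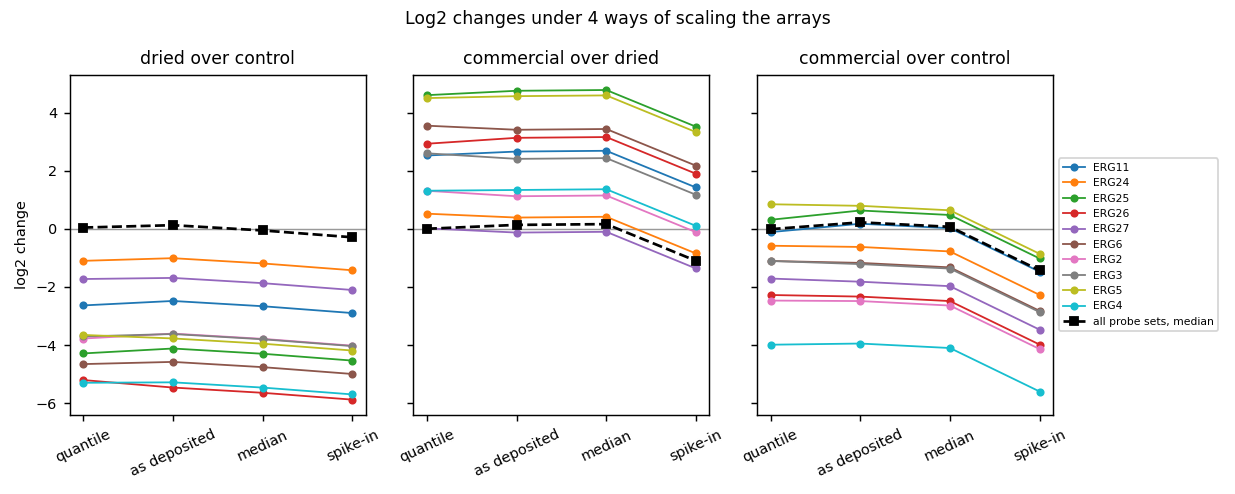
Log2 change of each late ergosterol gene under 4 ways of scaling the arrays (quantile, as deposited, centred on the array median, spike-in controls), with the median of all probe sets as a dashed line. In dried over control every gene's line stays below 0 throughout; in the other comparisons spike-in scaling moves all lines down together with the dashed line, which reaches -1.10 and -1.43.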

How the data were processed

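RNA of 9 arrays (3 per group, grouped by their titles) was analysed. The deposited values are 1 linear intensity per probe set and array; per the labels' protocols, images were read with the Affymetrix expression software and probe set signals were put through a rank test and then a mixed model with 2 steps. Array means after trimming 2% at each end were 500.2 to 500.3, so a global scaling had been applied. The sources used here give no software version. Arrays reached 5595.1 to 8504.3 at most; saturation was not tested.

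Intensities were raised to a floor of 1, log2 transformed and then quantile normalized (limma 3.58.1, R 4.3.3). One mean per group was fitted to all 9 arrays with lmFit and eBayes, which had 6 residual degrees of freedom and a prior of 1.64, and two-sided p-values were adjusted by Benjamini-Hochberg over 9275 probe sets (9335 less 60 controls) within each contrast. Of all probe sets, 6504 name 1 gene, 328 several and 2503 none; symbols were updated through the RefSeq table of assembly R64. A gene was represented by its brightest probe set. Background was the 95th percentile of 28 control probe sets for absent targets on each array, a level chosen after the data were seen. Where all 3 arrays of a group were at or under it, a fold is a bound, computed with each dim array's signal raised to background if below it. On simulated data the fit recovered 62% of 2-fold changes for dried over control, 65% for commercial over dried and 66% for commercial over control. The simulation left 9075 of 9275 probe sets unchanged. In the real dried over control comparison 36.2% of probe sets were called higher and 33% lower, so the recovery may differ in these data. The number of arrays limits the precision.

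Named genes are the 10 members, up to 4 genes per related list and contrast with the largest change, the 5 genes closest to the mean member profile, URA3 and LEU2. HMG2 and AUS1 fall outside that rule and were named after their values were seen. The members and lists were chosen with earlier results of these data known. In all, 19 alternatives were tried. No sequences were used.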

Additional observations from a re-analysis of the deposited data

How the results depend on the processing

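The count of 10 late ergosterol genes lower in dried than in control BY4743 was the same under all 19 alternatives. Of the results of single members over all alternatives, 563 stayed called in the same direction or stayed not called. The others all arose under spike-in scaling. There 5 changes turned in direction, and with direction kept 1 call was lost and 1 was gained. Spike-in scaling gave member medians of -4.11 (dried over control), 1.30 (commercial over dried) and -2.85 (commercial over control), 2 members lower in commercial than in dried yeast and 0 higher than in the control. The changes it turned were those of ERG24 (-0.85), ERG27 (-1.37) and ERG2 (-0.12) for commercial over dried, and ERG25 (-1.02) and ERG5 (-0.86) for commercial over control. Of these, ERG27 had not been called under the main scaling, and ERG2 was not called under spike-in scaling. It left 3, 2 and 1 of the 49 related genes higher in the 3 comparisons, and 24 and 40 lower in the comparisons with commercial yeast. The oxygen-using minus other difference was 2.05 for commercial over dried and 2.16 for commercial over control with values as deposited, median-centred or spike-in scaled, and 1.88 for commercial over control with an offset of 50. Median centring gave member medians of -3.88 for dried over control and -1.35 for commercial over control. The offset of 50 gave -3.54 for dried over control and 2.09 for commercial over dried, and raising signals under background to it (an alternative chosen after seeing the data) gave 2.36 for commercial over dried. For these values the cause was not tested. Of the 5 genes closest to the mean profile, 2 were shared under the deposited, median-centred and spike-in values, and 3 with the offset. Leaving out each array in turn gave member medians of -3.82 to -3.70 for dried over control, 2.54 to 2.61 for commercial over dried and -1.26 to -1.04 for commercial over control, the lowest without control replicate 1, and changed no call of a member. The arrays of the groups share replicate numbers. Deviations of same-numbered arrays from their group means correlated at -0.04 to 0.04, and those of differently numbered arrays at -0.06 to 0.08. These values do not settle whether the arrays pair, which the labels do not state. With the replicate number as a replicate block the members' counts stayed at 10 lower, 9 higher, and 2 higher with 7 lower, and the related genes had 14 higher and 26 lower, 28 higher and 11 lower, and 18 higher and 21 lower. Signals near background limit ERG26 and ERG5 in dried cells.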
